A study of Mus musculus with 10 samples.

Results

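The genes described here are the 8 named sperm-egg fusion genes Izumo1, Izumo2, Izumo3, Izumo4, Tmem95, Spaca6, Dcst1 and Dcst2, chosen by gene symbol. All 8 of 8 were present among the 15507 genes of the count table, and all 8 passed the filter on low counts that left 15389 genes tested. RNA was sequenced from germ cells of 5 WT mice and 5 GRTH Knock-In (KI) mice, all aged 45 days, with 1 library per mouse. KI mice are homozygous for a human GRTH gene bearing the R242H mutation. The mouse gene of GRTH is Ddx25, a testis RNA helicase. The germ cells were released from the whole testis with collagenase and trypsin and passed through strainers, so that spermatogonia, spermatocytes and spermatids were sequenced together. Values are normalized counts: reads on a gene divided by a scaling factor of the library.

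Fusion joins the sperm and egg membranes once a sperm has shed its acrosome and crossed the zona pellucida. The sperm genes for it are transcribed in the testis, mainly in spermatids, long before the proteins are used. IZUMO1 is the sperm ligand that binds JUNO (Izumo1r) on the egg, TMEM95 and SPACA6 are sperm membrane proteins required for fusion, and DCST1 and DCST2 are a pair of multi-pass membrane proteins that sperm also need. IZUMO2, IZUMO3 and IZUMO4 share the Izumo domain of IZUMO1. IZUMO3 acts in acrosome formation, and IZUMO4 lacks a membrane anchor.

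In KI germ cells the 8 genes did not move together. Tmem95 rose, Izumo2 and Izumo3 fell, and the other 5 were not called. To be called, a gene needed both an adjusted p below 0.05 and a fold change of 1.5 or more. By this rule 3 of the 8 genes (37.5%) were called, beside 14.4% of all genes tested. Of the 3, 2 were lower in KI and 1 was higher, beside 8.22% and 6.13% of all genes. Spaca6 passed on adjusted p but stayed below the fold change threshold, so that 4 of 8 genes passed on adjusted p alone, beside 22.9% of all genes. Of these 4, 1 was higher in KI (9.65% of all genes) and 3 were lower (13.3%). KI and WT libraries did not overlap for the same 4 of the 8, beside 17.7% of all genes, with KI above for 1 (6.8%) and below for 3 (10.9%). The median log2 fold change of the 8 genes was −0.26, and that of all genes was 0.03. Scaling libraries to total reads moved both upward by a similar amount, to −0.026 and 0.25. Scaling to spermatocyte markers took the median of the 8 genes to 0.0061. Those markers include Syce2, which was itself called lower in KI, and its part in this scaling was not tested.

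The sequences just before the starts of the genes that differed most in their response are shown first, with that of Izumo1 for comparison, as the strand that carries the gene, 5′ to 3′, from RefSeq (GRCm38.p6, the assembly of mm10). Each ends at the base before the RefSeq start, except that of Izumo3, which ends before the 13 bases left out next to its start. Bases that GENCODE vM21 places in an exon were left out, 45 of the last exon of Kctd11 from the Tmem95 stretch and 13 of the first exon of Izumo3 from its own. Capitals mark matches to any of 5 motifs searched on both strands: TGACGTCA (the full cAMP response element), TGACG (its short form, which lies within it), ACAATG (the SOX core), GTTGCC (an RFX core) and TATAAA (the TATA box).
Tmem95, chr11:69878056-69878260, minus strand: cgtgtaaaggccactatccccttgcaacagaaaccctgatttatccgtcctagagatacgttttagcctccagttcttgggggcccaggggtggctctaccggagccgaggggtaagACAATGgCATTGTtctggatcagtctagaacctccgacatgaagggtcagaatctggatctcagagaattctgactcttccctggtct
Izumo2, chr7:44708480-44708729, plus strand: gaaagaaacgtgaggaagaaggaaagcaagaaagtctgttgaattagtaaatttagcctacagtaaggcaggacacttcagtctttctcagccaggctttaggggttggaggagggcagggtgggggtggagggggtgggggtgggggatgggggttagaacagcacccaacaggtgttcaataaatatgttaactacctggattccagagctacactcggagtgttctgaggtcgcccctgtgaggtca
Izumo3, chr4:92147235-92147471, minus strand: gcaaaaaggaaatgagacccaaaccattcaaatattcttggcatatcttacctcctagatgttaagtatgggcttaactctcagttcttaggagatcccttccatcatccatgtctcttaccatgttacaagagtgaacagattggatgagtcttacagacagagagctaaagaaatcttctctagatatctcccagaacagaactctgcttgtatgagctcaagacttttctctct
Izumo1, chr7:45621561-45621810, plus strand: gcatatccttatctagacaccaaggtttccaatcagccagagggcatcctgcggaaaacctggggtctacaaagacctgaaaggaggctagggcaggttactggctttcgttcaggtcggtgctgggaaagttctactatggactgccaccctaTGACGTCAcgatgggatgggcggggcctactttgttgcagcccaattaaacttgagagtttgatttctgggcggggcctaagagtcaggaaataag

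Of the 8 genes, 7 had an entry in the RefSeq promoter table, and their full windows of 250 bases were searched for the motifs. The full cAMP response element was present before Izumo1, 96 to 89 bases from the start, and before no other of the 7, while 1.55% of 32851 promoter windows of the same length held it. Tmem95 carried the SOX core in both orientations, at 88 to 83 and at 81 to 76 bases before the start, a motif found in 10.7% of all windows. The short form TGACG, held by 17.8% of windows, also matched before Tmem95 at 208 to 204 bases, across the end of Kctd11. Spaca6 held the RFX core at 53 to 48 bases (10.4% of windows), and TATAAA was found in none of the 7 (12.4% of windows). In GENCODE vM21, 216 of the 250 bases searched before Spaca6 lie in exons of Spaca6 itself, and 68 lie in Mir125a. Of the Dcst1 window, 168 bases lie in exons of Dcst2, and of the Dcst2 window, 185 lie in exons of Dcst1. The windows of Izumo2 and Izumo3 held none of the 5 motifs. A match describes the letters only, and binding was not measured.

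Tmem95 (chr11:69876054-69878055, minus strand, protein coding) was the only gene of the 8 called higher in KI. Its normalized counts were 267, 244, 296, 314 and 334 in WT libraries 1 to 5 and 565, 561, 578, 658 and 529 in KI libraries 1 to 5. Every KI library was above every WT library, and the lowest KI and highest WT libraries were 195 normalized counts apart. The mean was 291 ± 36.1 (SD, n = 5) in WT and 578 ± 48.0 in KI, a 1.99-fold rise, or 0.99 on the log2 scale (SE 0.11, 95% confidence interval 0.77 to 1.22, limma adjusted p = 8.71e-06). This change was above that of 97.3% of all genes tested. Kctd11 ends 205 bases before the start of Tmem95 on the same strand, and its reads were not analysed here. In a bulk preparation, fewer cells of a type and less RNA per cell cannot be told apart, and this holds for each change below.

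Izumo2 (chr7:44708730-44719848, plus strand, protein coding) encodes a membrane protein of the Izumo family. WT libraries 1 to 5 had 1174, 1175, 1215, 951 and 959 normalized counts, and KI libraries had 628, 670.1, 659.9, 536 and 372. All 5 KI libraries were below all WT libraries, and libraries 4 and 5 were the lowest of each genotype. The mean fell from 1095 ± 129 to 573 ± 124, by 0.96 on the log2 scale (SE 0.15, 95% confidence interval −1.27 to −0.64, adjusted p = 2.61e-04), so that WT was 1.94-fold higher.

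Izumo3 (chr4:92144318-92147221, minus strand, protein coding) followed Izumo2 closely. Its normalized counts were 1361, 1337, 1271, 981 and 856 in WT and 709.7, 702, 753, 525 and 356 in KI. The genotypes again did not overlap, and again libraries 4 and 5 were the lowest of each. The means were 1161 ± 228 in WT and 609 ± 166 in KI, a fall of the same size as for Izumo2 (log2 fold change −0.96, SE 0.19, 95% confidence interval −1.37 to −0.55, adjusted p = 0.00202). Over the 10 libraries, log2 values of Izumo2 and Izumo3 had the highest correlation of any pair among the 8 (Pearson r = 0.982), and Izumo2 and Tmem95 the lowest (r = −0.872). These are descriptions over libraries that share their genotype and depth.

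Izumo1 (chr7:45621811-45627242, plus strand, protein coding), the JUNO ligand, was not called. WT libraries had 1359.9, 1229, 1243, 1269.8 and 1029 normalized counts, and KI libraries had 1352, 1515, 1416, 863 and 683. KI libraries lay on both sides of WT: libraries 2 and 3 were above all WT libraries and libraries 4 and 5 were below all of them. The means were 1226 ± 121.5 in WT and 1166 ± 369 in KI, a coefficient of variation of 9.91% in WT and 31.6% in KI. The log2 fold change was −0.13 (SE 0.19, 95% confidence interval −0.53 to 0.27, adjusted p = 0.668), and it was 0.10 when libraries were scaled to their total reads.

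Libraries numbered 1 to 3 and libraries numbered 4 and 5 stood apart on the second principal component in both genotypes, at 2.82 to 9.51 against −11.7 to −6.44. The labels name no batch that matches this split. For Izumo1 the log2 fold change was 0.16 in libraries 1 to 3 alone (adjusted p = 0.140) and −0.57 in libraries 4 and 5 alone (adjusted p = 0.0459). The difference between these values was −0.73 (SE 0.17, unadjusted p = 4.54e-04, limma interaction term), and it did not pass after adjustment over all genes (adjusted p = 0.0747, where 0.247% of genes passed). Tmem95, Izumo2 and Izumo3 were called in each set: Tmem95 was 1.08 in libraries 1 to 3 and 0.86 in 4 and 5, Izumo2 was −0.86 and −1.10, and Izumo3 was −0.87 and −1.08. Of the others, Izumo4 was −0.14 and −0.64, Spaca6 was −0.37 and −0.75, Dcst1 was 0.05 and −0.02, and Dcst2 was −0.16 and −0.19, with none called in either set.

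Izumo4 (chr10:80702693-80705382, plus strand, protein coding), the family member without a membrane anchor, was also not called. WT libraries had 1230.2, 1303, 1472, 1392 and 1085 normalized counts, and KI libraries had 1113, 1313, 1196, 955 and 655. Libraries 4 and 5 of KI were below all WT libraries, and the other 3 lay within the WT range. The means were 1297 ± 149 and 1047 ± 255 (log2 fold change −0.34, SE 0.16, 95% confidence interval −0.68 to −0.0041, adjusted p = 0.140). With the library number as a block, which assumes a pairing that was not shown, the adjusted p was 0.0206. With a limma term for library set instead, a split that the labels do not name, it was 0.0359. The fold change stayed below the threshold.

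Spaca6 (chr17:17830975-17839071, plus strand, protein coding) had the fewest reads of the 8 genes, 88 to 167 per library. Its normalized counts were 146, 184, 187, 138 and 157 in WT and 134, 126, 138, 94.2 and 81.0 in KI. All KI libraries were below all WT libraries, but by only 0.455 normalized counts between the closest libraries, less than the value of 1 read. The means were 163 ± 22.0 and 115 ± 25.4, with WT 1.44-fold higher (log2 fold change −0.52, SE 0.16, 95% confidence interval −0.87 to −0.17, adjusted p = 0.0314). Leaving out WT library 2 or 3, or KI library 4 or 5, raised the adjusted p above 0.05, to as much as 0.0767, and leaving out KI library 3 brought the fold change past the threshold (log2 fold change −0.60). Under scaling to total reads, the adjusted p was 0.193 and the log2 fold change −0.29.

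Dcst1 (chr3:89350219-89365253, minus strand) and Dcst2 (chr3:89365319-89377642, plus strand), both protein coding, are neighbours that point away from each other. The models used for counting leave 65 bases between their starts, shown here on the plus strand because both genes begin at its ends.
Dcst1 to Dcst2, chr3:89365254-89365318, plus strand: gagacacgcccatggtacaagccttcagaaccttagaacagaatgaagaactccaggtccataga

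Dcst1 had 1449.8, 1633, 1381, 1599.8 and 1749.7 normalized counts in WT and 1406, 1631, 1581, 1686 and 1620.2 in KI. Every KI library lay within the WT range. The means were 1562 ± 148 and 1585 ± 107 (log2 fold change 0.02, SE 0.09, 95% confidence interval −0.17 to 0.22, adjusted p = 0.890). Scaling to total reads moved Dcst1 to 0.25 (adjusted p = 0.0324), the value of the median of all genes under that scaling.

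Dcst2 had 1449.8, 1569, 1498, 1429 and 1612 normalized counts in WT and 1235, 1468, 1345, 1390.5 and 1279.8 in KI. KI libraries were below all WT libraries in 4 of 5 cases, and KI library 2 lay within the WT range. The means were 1512 ± 77.8 and 1344 ± 91.4, with a log2 fold change of −0.17 (SE 0.08, 95% confidence interval −0.35 to 0.0037, adjusted p = 0.153) that was 0.06 under scaling to total reads. In GENCODE vM21 the Dcst2 transcript starts further back, inside the Dcst1 gene on the opposite strand, with 0 exon bases shared. Inside Dcst1, GENCODE vM21 also places the pseudogene Gm10702 on the plus strand, sharing 1268 exon bases with Dcst1. The counting was not stated to use strand, and how far this overlap affects the Dcst1 counts was not tested.

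**Figure D1:**
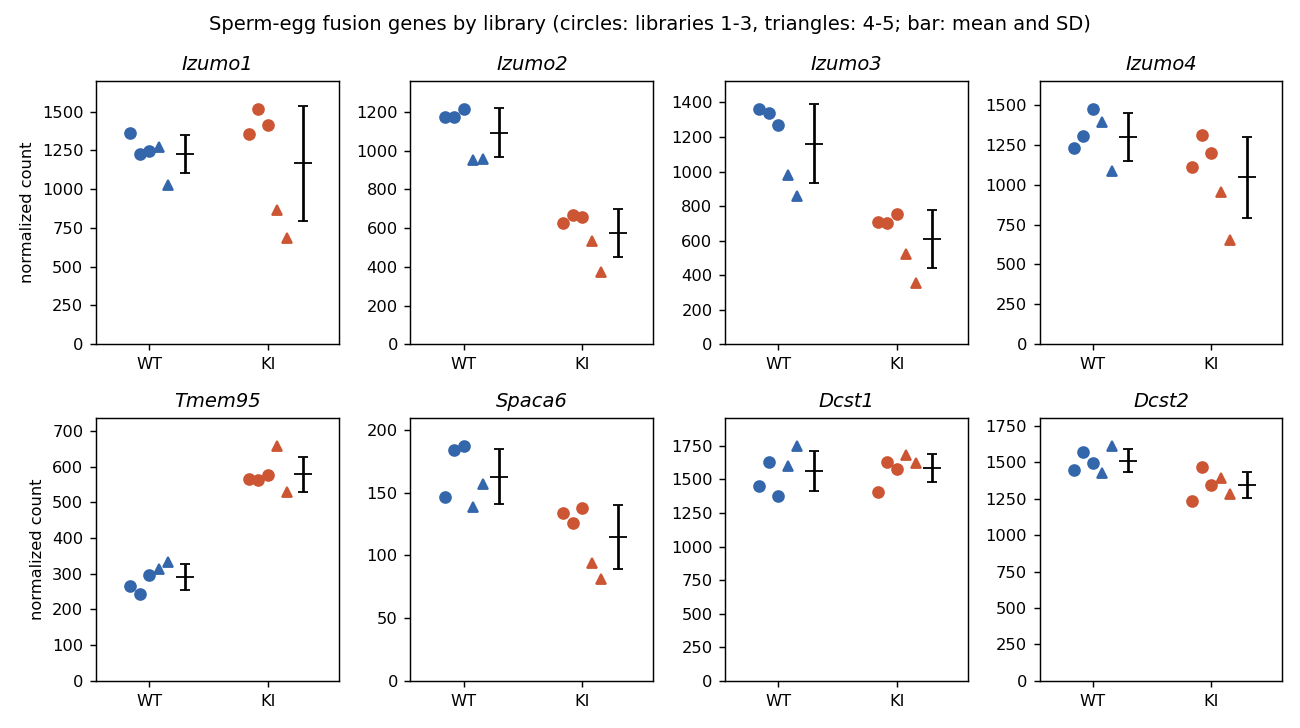
Normalized count of each of the 8 genes (vertical axis, from 0) in each WT and KI library. Circles are libraries 1 to 3, triangles are libraries 4 and 5, and bars give the mean and SD (n = 5). All KI points of Tmem95 lie above WT, all KI points of Izumo2 and Izumo3 lie below WT, and KI points of Izumo1 fall on both sides.

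**Figure D2:**
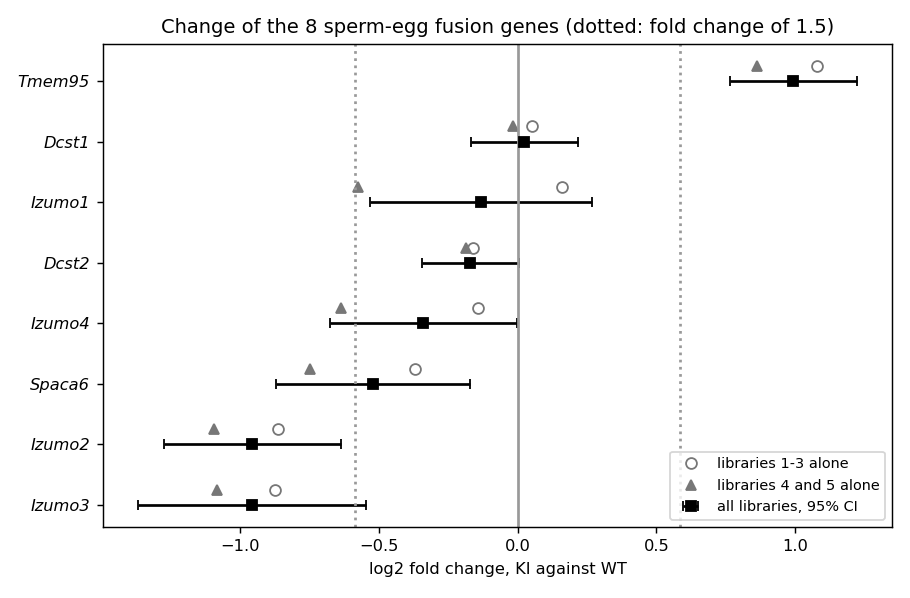
Log2 fold change of KI against WT (horizontal axis) for each gene, as squares with 95% confidence intervals over all libraries, with libraries 1 to 3 alone as open circles and libraries 4 and 5 alone as triangles. Dotted lines mark a fold change of 1.5. Tmem95 (0.99), Izumo2 (−0.96) and Izumo3 (−0.96) lie past the dotted lines in both library sets, and Izumo1 lies on either side of 0 (0.16 and −0.57).

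Ratios of members within a library do not depend on how libraries are scaled, and test whether members changed unequally. Izumo1 was compared with each of the other 7 genes, and Dcst1 with Dcst2, by exact two-sided permutation tests of 5 against 5 libraries whose smallest possible p was 0.00794, adjusted over the 8 comparisons. The log2 ratio of Izumo1 to Izumo2 was 0.17 ± 0.16 in WT and 0.99 ± 0.20 in KI, a rise of 0.82 (exact p = 0.00794, adjusted p = 0.0212). WT libraries ranged from 0.03 to 0.42 and KI libraries from 0.69 to 1.18, without overlap. The ratio of Izumo1 to Izumo3 rose by the same amount, from 0.10 ± 0.21 to 0.92 ± 0.14 (exact p = 0.00794, adjusted p = 0.0212). Against Tmem95, the ratio of Izumo1 fell from 2.08 ± 0.30 to 0.95 ± 0.52 (exact p = 0.00794, adjusted p = 0.0212), with WT at 1.62 to 2.35 and KI at 0.37 to 1.43. Izumo1 thus changed differently from Izumo2, Izumo3 and Tmem95, although it was itself not called.

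The other ratios moved less. The ratio of Izumo1 to Spaca6 was higher in KI by 0.39, which did not pass after adjustment (exact p = 0.0476, adjusted p = 0.0762), and that to Izumo4 was higher by 0.21 (exact permutation test, adjusted p = 0.116). The differences were −0.16 against Dcst1 (exact permutation test, adjusted p = 0.717) and 0.04 against Dcst2 (adjusted p = 0.889). Between the neighbours Dcst1 and Dcst2, the log2 ratio was 0.04 ± 0.11 in WT and 0.24 ± 0.07 in KI, a small rise of 0.19 (exact p = 0.0159, adjusted p = 0.0317). WT libraries lay at −0.12 to 0.16 and KI libraries at 0.15 to 0.34, overlapping at the edge. Leaving out WT library 1, 2, 3 or 5, or KI library 1, 3, 4 or 5, raised the adjusted p of this ratio to between 0.0508 and 0.0635.

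**Figure D3:**
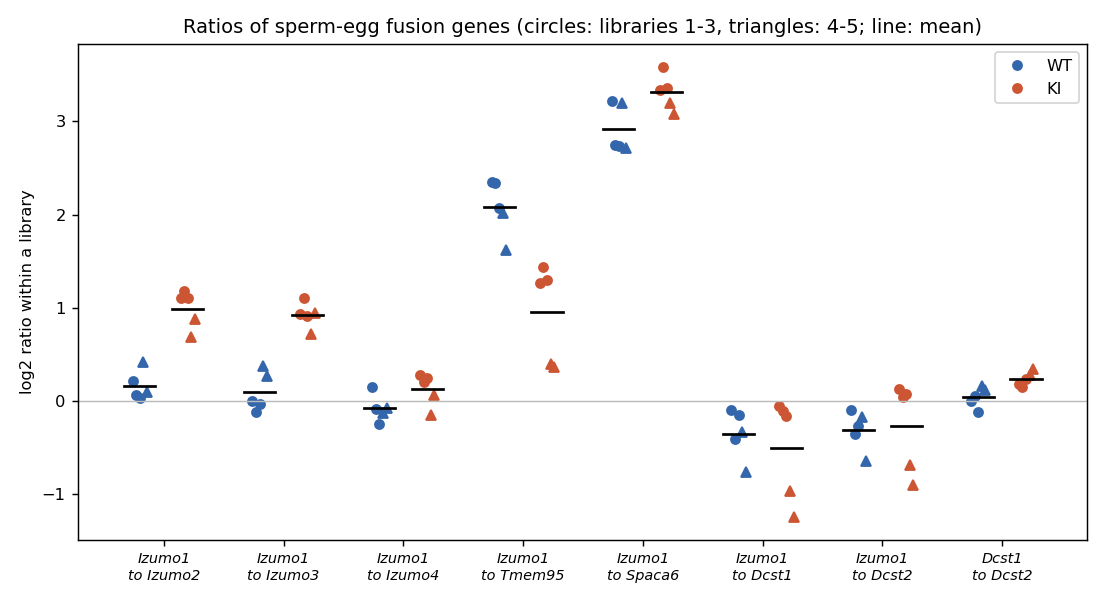
Log2 ratio of the values of a pair of genes within each library (vertical axis), WT in blue and KI in orange, with circles for libraries 1 to 3, triangles for libraries 4 and 5, and lines for the means. The genotypes do not overlap for Izumo1 to Izumo2, Izumo1 to Izumo3 and Izumo1 to Tmem95, and KI libraries 4 and 5 are the lowest for Izumo1 to Dcst1 and Izumo1 to Dcst2.

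To compare levels between the genes, normalized counts were divided by the length of the longest protein coding transcript in GENCODE vM21. In WT, the level per kb was highest for Izumo2 at 1732 ± 204 normalized counts per kb, above the library range of every other member. Izumo4 (1084 ± 125), Izumo3 (927 ± 182) and Izumo1 (821 ± 81.4) followed, and the ranges of neighbours in this order overlapped. Dcst1 (667 ± 63.0) and Dcst2 (662 ± 34.0) were level within their spread, with overlapping ranges down to Tmem95 at 548 ± 68.0. Spaca6 was last at 152 ± 20.5, below all libraries of the others.

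In KI the order per kb changed at its top. Tmem95 moved from 7th of 8 to 1st at 1089 ± 90.4 normalized counts per kb, although its library range (996 to 1239) overlapped those of Izumo2 (588 to 1060), Izumo4 (548 to 1098) and Izumo1 (457 to 1015). Izumo3 moved from 3rd to 7th at 487 ± 133, and Spaca6 stayed last at 107 ± 23.7. The transcript length used for Tmem95, 531 bases, comes from a GENCODE gene of 69876684 to 69878018 that is shorter than the model counted, which spans 2002 bases. A longer transcript would lower its level per kb by the same factor in both genotypes. The GENCODE spans of Izumo1, Izumo4, Spaca6 and Dcst2 also differ from the models counted. The place of each gene among the 8, that of Tmem95 included, therefore depends on the lengths used.

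**Figure D4:**
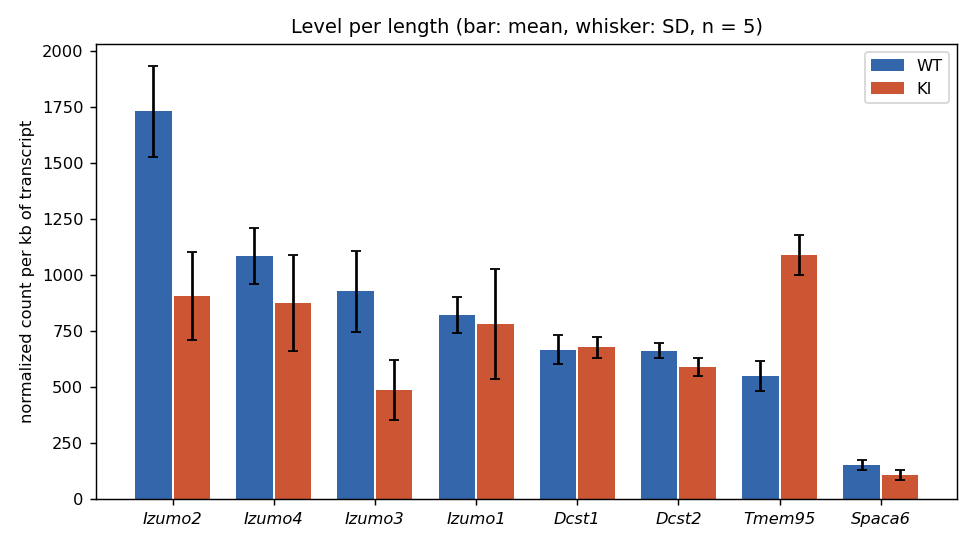
Normalized count per kb of transcript (vertical axis, from 0) for the 8 genes ordered by their WT mean, with bars for the mean and whiskers for the SD (n = 5) in WT (blue) and KI (orange). At the transcript lengths used, Tmem95 is 7th in WT at 548 and 1st in KI at 1089, while Izumo2 drops from 1732 to 907.

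Other genes of sperm at fusion and the equatorial segment were lower in KI throughout. Of the 7 on a list written from general knowledge, 4 were called lower and 0 higher, beside 8.22% and 6.13% of all genes. All 7 were lower at an adjusted p under 0.05, beside 13.3% of all genes, and their median log2 fold change was −0.79. With scaling to total reads or to spermatocyte markers, 3 and 2 of the 7 were called, all lower. Of the 15389 genes tested, 789 and 637 were called lower there. Tssk6, the kinase that IZUMO1 needs to relocate on the sperm head, fell from 11565 ± 2368 to 1481 ± 542 normalized counts (log2 fold change −3.02, adjusted p = 1.42e-07). Llcfc1, the gene of the fusion factor SOF1, fell from 3448 ± 332 to 1617 ± 442 (−1.14, adjusted p = 2.20e-04). 4930451I11Rik, the gene of the fusion factor FIMP, fell from 229 ± 37.6 to 117 ± 16.7 (−0.96, adjusted p = 1.49e-04), and Crisp2 fell by 0.79 on the log2 scale. Tmem81, whose product associates with IZUMO1 and SPACA6, had a log2 fold change of −0.40 (adjusted p = 0.0302), below the fold change threshold.

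Genes for zona binding, the acrosome and migration through the oviduct gave a smaller shift. Of 28, 5 were called lower and 0 higher, beside 8.22% and 6.13% of all genes. At an adjusted p under 0.05, 11 were lower, beside 13.3% of all genes, and the median log2 fold change was −0.30. Under scaling to total reads, 2 were called lower and 1 higher, beside 789 and 2144 of 15389 genes. The median was then −0.072, and that of all genes was 0.25. The largest falls were those of Ace, the gene of angiotensin converting enzyme, whose isoforms were counted together, at −1.14, and of Spam1, the sperm hyaluronidase, at −0.95. Adam1a and Pmis2, both needed for migration into the oviduct, fell by 0.71 and 0.70 on the log2 scale. Of the egg-side genes, Cd9 and Cd81, tetraspanins that many cells express, were among the rows used here. Cd9 rose from 51.4 ± 8.46 to 91.2 ± 14.9 (0.81, adjusted p = 0.00234), and Cd81 had a log2 fold change of 0.56 (adjusted p = 0.00616), below the fold change threshold.

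Spermatid, Leydig cell and macrophage markers also included genes that differed between the genotypes. Beside the marker counts below, 8.22% of all genes were called lower and 6.13% higher, and 13.3% were lower at an adjusted p under 0.05. Ddx25 itself, the targeted gene, was between 5198 and 11101 normalized counts in WT libraries and between 1.84 and 194 in KI libraries (log2 fold change −7.84, adjusted p = 5.63e-05). KI mice carry a human GRTH gene, and reads were counted on mouse genes, so this fall does not measure GRTH expression in KI. How far transcripts of the human gene were counted on Ddx25 was not tested. All 10 elongating spermatid markers were called lower (median log2 fold change −2.39), with summed levels of 257768 to 458368 normalized counts in WT and 38445 to 74866 in KI. Of the 9 round spermatid markers, 2 (Tssk2 and Txndc8) were called lower, and 5 were lower at an adjusted p under 0.05. Their median was −0.48, and the summed levels were 28119 to 34265 in WT and 17244 to 25020.1 in KI. Among 12 spermatocyte markers only Syce2 was called (−1.62, median of the list −0.23), and 2 were lower at an adjusted p under 0.05. Of the 7 spermatogonia markers present in the table (Nanos3 was not analysed here), 0 were called by limma, edgeR or DESeq2 (median 0.28). Of these 7, 2 had an unadjusted p under 0.05, and Gfra1 alone had an adjusted p under 0.05 (log2 fold change −0.48).

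Somatic markers were present in these germ cell preparations, and no marker found in the table was at or under 3 reads in every library. Leydig cell markers were called higher for 4 of 8 genes, Insl3, Cyp17a1, Hsd3b6 and Cyp11a1 (median 0.69, summed levels 11042 to 19764 in WT and 15952 to 27283 in KI). The count of Leydig cell markers called higher was 3 with edgeR, 6 with DESeq2 and 8 under scaling to total reads. That last scaling called 2144 of 15389 genes higher. Macrophage markers were called higher for 5 of 9, with summed levels of 777 to 1031 in WT and 1168 to 1587 in KI (median 0.69). Myoid markers were called higher for 2 of the 4 tested (median 0.27), or 1 with edgeR. These 2 were Acta2 (0.78) and Des (1.04), while Myh11 (−0.30) and Tagln (−0.23) were lower and not called. Of the 8 Sertoli cell markers, 0 were called by limma, edgeR or DESeq2, and 0 had an unadjusted p under 0.05 (median 0.13). The part of these changes in cell markers in the values of the 8 fusion genes was not tested.

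**Figure D5:**
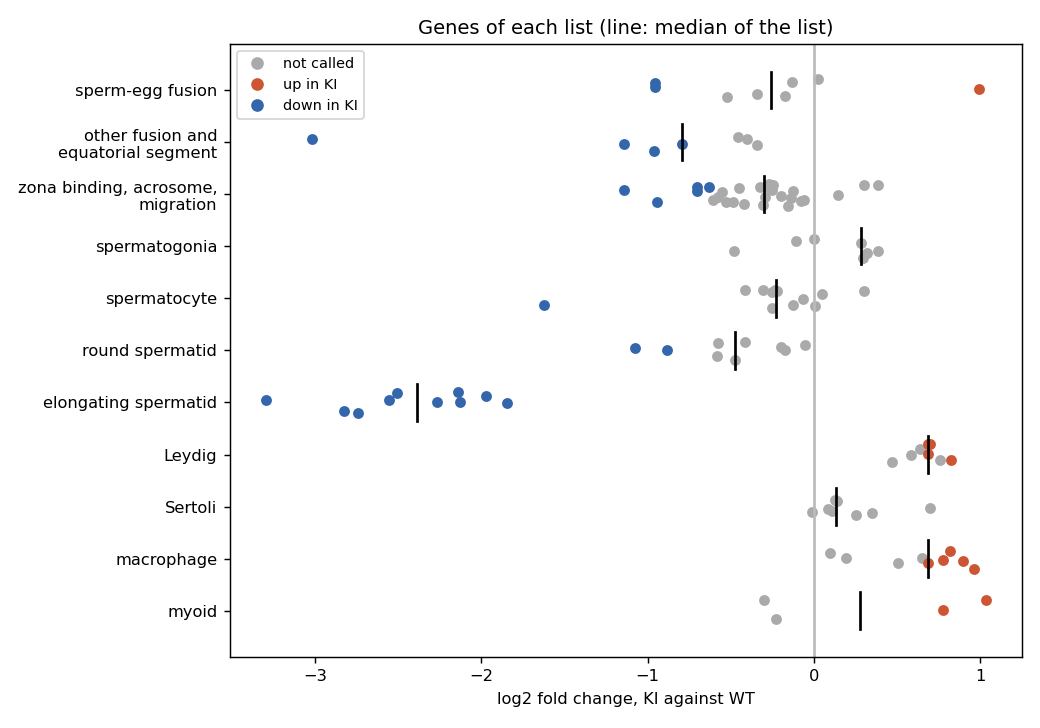
Log2 fold change of KI against WT (horizontal axis) for each gene of each list (rows), in orange where called higher in KI, in blue where called lower and in grey where not called, with a line at the median of the list. The sperm-egg fusion genes spread from −0.96 to 0.99 around a median of −0.26, and the elongating spermatid markers all lie far to the left with a median of −2.39.

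Of the 7 other genes that were nearest to a member in the table, within 5 kb, 0 were called by limma, edgeR or DESeq2, and 2 had an unadjusted p under 0.05, Mob3a and Zbtb7b. Both were called higher when libraries were scaled to total reads, a scaling that called 2144 of 15389 genes higher. Mob3a, 872 bases before Izumo4 on the other strand, was 235 ± 16.9 in WT and 346 ± 47.6 in KI (log2 fold change 0.55, adjusted p = 0.00225), below the fold change threshold. Acap1, 3511 bases from Tmem95, had a log2 fold change of −0.10 (adjusted p = 0.824). Rasip1, 294 bases after Izumo1, had one of 0.06 (adjusted p = 0.872), and Fut1, 751 bases before it, had −0.38 (adjusted p = 0.423). GENCODE vM21 also has a longer, retained-intron transcript of Izumo1 that shares 654 exon bases with Rasip1, whose mean was 58.1 ± 16.7 in WT and 58.8 ± 4.95 in KI. Ap3d1 beside Izumo4 had −0.05, and Adam15 beside Dcst1 had 0.13 (adjusted p = 0.811 and 0.684). Zbtb7b, whose model ends 1 base from the end of Dcst2 on the other strand, had 0.50 (adjusted p = 0.0608). No gene of the table lay within this distance of Izumo2, Izumo3 or Spaca6.

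The genes whose log2 values over the 10 libraries were most like those of each member were sought among the 10519 tested genes whose mean reached 100, as a description of shared libraries and genotype. Esrrb, an orphan nuclear receptor gene, was closest to Tmem95 (r = 0.991) and rose far more, from 49.0 ± 14.8 to 256 ± 24.3 normalized counts (log2 fold change 2.41). Tapbpl came next (r = 0.982), from 57.0 ± 9.51 to 269 ± 19.4. Izumo2 was closest to Allc and Cst8 (r = 0.996 for both), which fell by 0.82 and 1.27 on the log2 scale. Izumo3 was closest to Ppp1r2-ps3 (r = 0.996) and 1700019D03Rik (r = 0.995), and Spaca6 to 1700012B07Rik (r = 0.968) and Sgf29 (r = 0.959). For Izumo1 these were 4933416O17Rik (r = 0.985) and Gm13872 (r = 0.980), neither of which was called, and for Izumo4 they were 1700018B08Rik (r = 0.989) and 4930444P10Rik (r = 0.988). Dcst1 and Dcst2 had looser matches, Lpcat4 (r = 0.904) and Arsa (r = 0.889) for Dcst1 and Il3ra (r = 0.917) and Arl4c (r = 0.912) for Dcst2.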

How the data were processed

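RNA of germ cells from 5 WT and 5 KI mice was sequenced by the authors as paired-end 150 bp reads of poly(A) RNA, aligned to mm10 with STAR and counted on RefSeq genes with the Partek E/M model, per the methods and the submitters' processing notes. The authors deposited a signal per gene and library, read counts divided by a DESeq2 size factor. Whole reads were recovered for 100% of values under 5000 reads (tolerance 0.1 reads). Reads on genes numbered 13323024 to 16422347 in WT and 12722086 to 15500582 in KI, and 3 reads, the limit that a count of 0 allows, correspond to 2.61 to 3.62 normalized counts. Columns not assigned to a sample numbered 0.

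Genes passing filterByExpr of edgeR (4.0.16) by genotype were tested with limma (3.58.1, R 4.3.3) with a variance trend on log2(value + 1), with Benjamini-Hochberg adjustment over 15389 genes. Log2 fold changes are on this scale and understate changes of low genes. The steps were tested on simulated data. Alternatives were edgeR and DESeq2 (1.42.0) on recovered reads, other scalings, pseudocounts, filters, thresholds and designs, and leaving out each library. The interaction of genotype with library set was added after seeing the data. Members, lists, motifs and tests were chosen with earlier results of these data known. Named genes were all 8 members, up to 4 called genes with the largest change per list, table neighbours within 5 kb, the 2 most alike genes, Ddx25 and any gene a result turns on. Tmem81, Cd81, Gfra1, Myh11, Tagln, Kctd11, Mir125a and Gm10702 were named after their values or positions were seen.

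Libraries of the same number correlated after removal of genotype means (r = 0.306, 0.105, 0.280, 0.216 and 0.462, beside a mean of 0.134 over other pairs within libraries 1 to 3 or 4 and 5). Each r was over 0.1, and the numbers, which come from the labels, were used as a block in an alternative. This cut-off cannot show pairing, because the mean over other pairs, 0.134, also passed it. The r of 0.105 was below that mean. The labels name no pairing, so the block is an assumption. The end of each gene is the table's stop minus 1, which matched the RefSeq end for 62.8% of shared genes, against 4.22% for the stop itself. The sources used here give no version of STAR.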

Additional observations from a re-analysis of the deposited data

How the results depend on the processing

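Izumo2, Izumo3 and Tmem95 kept their call and direction in all 25 alternatives run for each, with adjusted p of 4.95e-08 to 0.0171, 2.08e-07 to 0.0152 and 3.89e-16 to 0.00605. The number of the 8 genes called stayed at 3, except for 4, with Spaca6 added, with no fold change threshold and without KI library 3. The adjusted p of Spaca6 ran from 0.00375 to 0.375, of Izumo4 from 0.0206 to 0.792 and of Dcst2 from 0.0843 to 0.784. Over all genes, 2209 were called (42.7% higher in KI), 1370 with a mean of at least 100 (29.3% higher), 3529 with no fold change threshold, and 1971 to 2303 when 1 library was left out. The share higher in KI was 73.1% under scaling to total reads, 55.8% under upper quartile scaling, 66.1% under scaling to spermatocyte markers and 30.3% in libraries 4 and 5 alone.

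Of the 5 genes not called, Izumo4 and Spaca6 stayed lower in KI in all 25 alternatives, and the other 3 changed sign in some. Izumo1 was 0.10 under scaling to total reads, 0.13 under spermatocyte markers and 0.16 in libraries 1 to 3, and −0.24 to 0.043 when 1 library was left out, above 0 only without KI library 5. Dcst2 was 0.058 under total reads and 0.091 under spermatocyte markers. Dcst1 was −0.018 in libraries 4 and 5, and −0.020 to 0.066 when 1 library was left out. The ratio of Izumo1 to Dcst1 was 0.11 in libraries 1 to 3 and −0.27 to 0.028 when 1 library was left out, and that of Izumo1 to Dcst2 was −0.39 in libraries 4 and 5 and −0.062 to 0.20 when 1 library was left out. The cause was not tested.

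With the replicate block, 2410 genes and 3 of the 8 were called, and no call of a member changed. Under the block, the exact sign-flip test over 5 pairs cannot go below p = 0.0625, so that the ratios of Izumo1 to Izumo2 (0.82), Izumo3 (0.82) and Tmem95 (−1.13) and of Dcst1 to Dcst2 (0.19), each at adjusted p = 0.125, cannot pass there. The same holds by sample number for libraries 1 to 3 (1.02, 1.03, −0.92 and 0.21 in the same order) and libraries 4 and 5 (0.52, 0.51, −1.44 and 0.17). The ratio of Dcst1 to Dcst2 was 0.15 to 0.22 when 1 library was left out. Depth limits Spaca6 most, at 88 to 167 reads per library.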
